A study of Mus musculus with 3 samples.

Results

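The genes described here are 10 immediate early genes, those of the AP-1 transcription factor (Fos, Fosb, Fosl2, Jun, Junb, Jund and Atf3), the zinc finger factors Egr1 and Egr2, and Ier2, in wild-type mouse retina at postnatal day 7 (P7). Total RNA of 3 samples was measured on Affymetrix MG-U74Av2 arrays, where probe sets of short oligonucleotides stand for the genes, some of which have several. All probe sets with 1 of these symbols as their single gene in the platform annotation were taken, which gave 15 of the 12422 that were not controls, or 10 of 8251 genes. Neural retinas of 3 to 4 wild-type mice were pooled for each sample, the mice being littermates of Rp1-/- animals on a mixed 129/SvEv and C57BL/6 background, collected between 1 and 2 pm. Rp1 encodes a photoreceptor protein. All 3 samples belong to 1 group, so no condition was compared with another, and the pools are called 1, 2 and 3, the numbers being names only. Of the lighting before collection and the time from death to RNA extraction the labels say nothing.

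Immediate early genes are transcribed soon after a stimulus reaches a cell, without the need for new protein, and most of their mRNAs are short-lived. Proteins of the Jun and Fos families pair through leucine zippers to form AP-1, which binds the sequence TGANTCA, and Jun proteins can pair with each other or with Atf proteins, whereas Egr proteins bind GC-rich sites on their own. In the adult retina light and injury are known to raise Fos and Egr1 mRNA, and in neurons generally these genes serve as markers of recent activity. Jund differs from the other Jun genes in that it is known to be transcribed in most resting cells.

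The transcription of Fos and its relatives is known to be switched on through short elements close to the start site, among them the cAMP response element, whose core is TGACGT, and the CArG box bound by serum response factor. RefSeq promoter sequence (build GRCm38.p6) was at hand for 8 of the 10 genes in 12 windows of 250 bases before an annotated start, 5 of them for Egr2. The windows were searched on both strands. Egr1 and Ier2 were not searched, nor was sequence further upstream of any gene. The core TGACGT was found for 3 of the 8 genes (Fos, Atf3 and Egr2, in 5 of the 12 windows), against 6.47% of all 32851 such windows. TGACNTCA, which overlaps TGACGT where N is G, was found in the Jun window alone (7.49% of all windows), TATAAA in that of Fos (12.4%) and the CArG box in 4 Egr2 windows (1.47%). The Egr2 windows with TGACGT overlap and hold the same copy of it and of a CArG box, so these are not separate sites. TGANTCA was found in none of the 12 windows (6.75% of all windows). Below, Fos, Jun and Atf3 are shown because they carry such a sequence, and Fosb because it was the member with the widest spread between pools among those tested. Each runs 5′ to 3′ along the gene, ends at the base before the start, and has the matches in capitals.
Fos (chr12:85473640-85473889, plus strand): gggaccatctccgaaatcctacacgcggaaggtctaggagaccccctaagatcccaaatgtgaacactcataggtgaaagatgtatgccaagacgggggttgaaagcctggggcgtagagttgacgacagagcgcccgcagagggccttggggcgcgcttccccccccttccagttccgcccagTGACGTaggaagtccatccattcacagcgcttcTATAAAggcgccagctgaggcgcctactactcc
Jun (chr4:95052223-95052472, minus strand): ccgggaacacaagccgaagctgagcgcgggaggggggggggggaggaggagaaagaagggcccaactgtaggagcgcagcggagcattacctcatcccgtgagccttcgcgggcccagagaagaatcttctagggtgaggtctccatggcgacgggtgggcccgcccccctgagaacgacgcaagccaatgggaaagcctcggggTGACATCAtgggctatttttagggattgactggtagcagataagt
Atf3 (chr1:191183334-191183583, minus strand): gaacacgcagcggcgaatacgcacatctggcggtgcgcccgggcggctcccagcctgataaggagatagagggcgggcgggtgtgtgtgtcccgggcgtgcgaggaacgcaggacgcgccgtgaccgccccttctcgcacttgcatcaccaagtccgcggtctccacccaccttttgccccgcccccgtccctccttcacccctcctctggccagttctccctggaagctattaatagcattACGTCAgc
Fosb (chr7:19310046-19310295, minus strand): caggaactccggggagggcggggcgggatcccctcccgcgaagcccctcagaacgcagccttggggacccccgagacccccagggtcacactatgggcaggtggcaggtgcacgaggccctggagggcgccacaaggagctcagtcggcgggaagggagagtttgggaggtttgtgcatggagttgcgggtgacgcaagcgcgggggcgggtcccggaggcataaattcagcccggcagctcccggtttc
In Fos the capitals are TGACGT, which begins 66 bases before the start, and TATAAA, 33 bases before it. In Jun they are a TGACNTCA match 45 bases before the start, and in Atf3 the core on the opposite strand 8 bases before it. The Fosb window held none of the 5 sequences. A match is a description of the letters and not a site shown to be used.

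Signal was judged against a background bar, the 90th percentile of 67 genes known for other tissues (liver, pancreas, testis, skin and more), which was 306, 304 and 326 in pools 1, 2 and 3. Intensities are the deposited values after each array was brought to a common median. The chosen probe sets of 3 of the 10 genes, Jun, Jund and Ier2, were above the bar in all pools, against 43.6% of all 8251 genes. Another 3, Fosb, Egr1 and Junb, passed it in some pools, and Fos, Fosl2, Egr2 and Atf3 in none. Genes below the bar may still be expressed, and since probe sets bind with different strength, their intensities give no order between genes. The bar decided the count: with the 75th percentile (143, 165 and 180), Fosb, Junb, Egr1 and Atf3 passed too, 7 of 10 against 57.3% of all genes. Fos, Fosl2 and Egr2 did not.

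**Figure D1:**
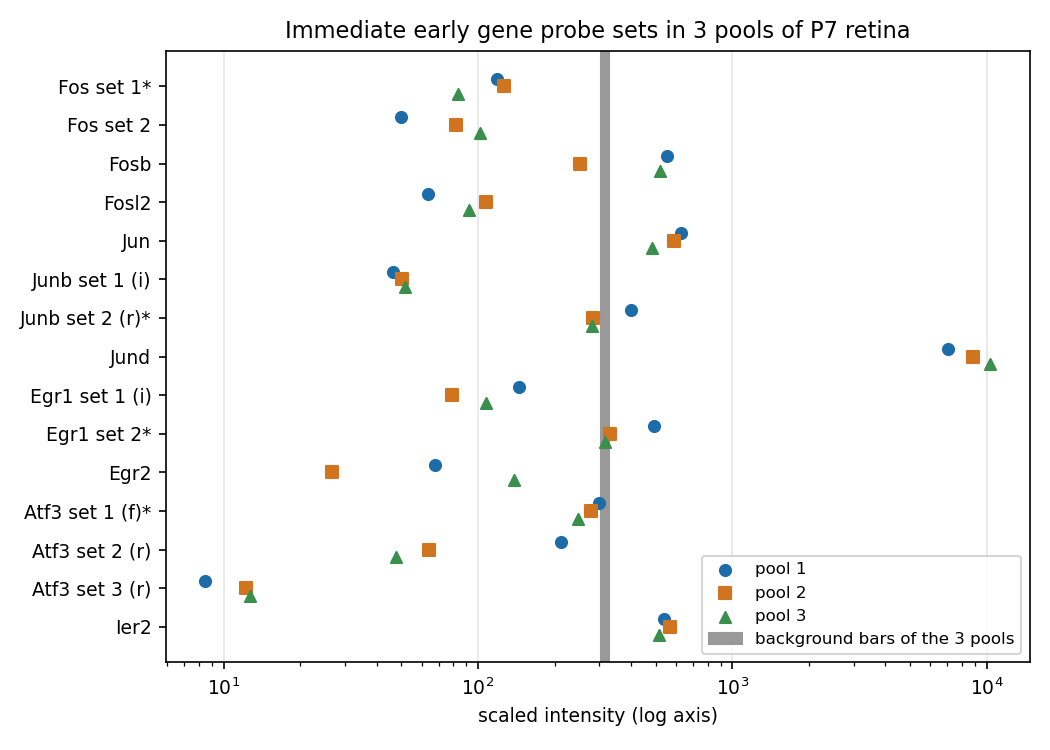
Scaled intensity (horizontal log axis) of all 15 member probe sets in pools 1, 2 and 3 (circles, squares and triangles), with the 3 background bars as a grey band from 304 to 326. Letters in brackets are the suffix of the probe set type, and a star marks the chosen probe set where a gene has several. Jund, Jun and Ier2 lie right of the band in every pool and all Fos, Fosl2, Egr2 and Atf3 points left of it.

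In the Jun family, Jund (probe set 102364_at) had intensities of 7062, 8815 and 10352 in pools 1, 2 and 3, a mean of 8743 ± 1646 (SD, n = 3 pools). Its mean was above those of all 67 off-tissue genes. Pool 3 was the highest pool for Jund and pool 1 the lowest, at 1.47-fold between them, and after quantile normalization pool 2 was the lowest instead. Jun (100130_at), the founding member of AP-1 and a target of the JNK kinases, was at 628, 587 and 484, a mean of 566 ± 74.2 (SD, n = 3). Its values differed by 1.30-fold at most, and 65 of the 67 off-tissue genes had a lower mean.

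Junb encodes a Jun protein that can oppose the action of Jun. Its chosen probe set (102363_r_at) was at 398, 284 and 281 (mean 321 ± 66.5, SD, n = 3), so that pool 1 alone was above its bar. The other Junb probe set (102362_i_at) was at 46.4, 50.2 and 51.4, far below the bar in each pool and without the higher value in pool 1. The suffixes r and i mark probe sets designed with some rules dropped or with fewer probes, so neither Junb value comes from a regular probe set.

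In the Fos family, Fosb (103990_at) had intensities of 554, 252 and 519 in pools 1, 2 and 3, a mean of 442 ± 165 (SD, n = 3). Pools 1 and 3 were above the bar and pool 2 was below it. The pool 1 value was 1.82-fold the bar of pool 2. Fosb encodes FosB and a shorter splice form that persists in stimulated neurons, and the probe set gives no separate value for either. Fos, the partner of Jun in the first AP-1 complex described, was read by a pair of regular probe sets. The first (160901_at) was at 119, 126 and 83.2 and the second (161716_at) at 49.6, 82.2 and 102. Both lay below the bars of all pools, at the 75th percentile too, so no order of the pools is read from either. Of the 67 off-tissue genes, 45 and 39 had a lower mean than these probe sets. Fosl2 (103546_at), which encodes the Fos relative Fra-2, was at 63.8, 108 and 92.0, below the bar in every pool.

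Egr1 (98579_at) encodes a zinc finger factor induced by synaptic activity and growth factors. It had intensities of 494, 330 and 317 in pools 1, 2 and 3, a mean of 380 ± 98.5 (SD, n = 3), and was above the bar in pools 1 and 2 and just below it in pool 3. The pool 1 value was 1.51-fold the bar of pool 3. A second Egr1 probe set of incomplete design (161802_i_at) lay below the bar in every pool, at 145, 78.6 and 108, so no order of the pools is read from it. Egr2 (102661_at), which encodes a related factor of hindbrain and Schwann cell development, was at 67.4, 26.6 and 139, with no value above the bar.

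Atf3 encodes a stress-induced partner of Jun that is known to appear in injured neurons, ganglion cells among them. Its chosen probe set (104155_f_at), of a type that may share probes with related transcripts, was at 299, 279 and 247, with a mean of 275 ± 26.3 (SD, n = 3) below the bar. The second Atf3 probe set (104156_r_at) was at 212, 64.4 and 47.7, and the third (161645_r_at) at 8.47, 12.2 and 12.7. All 3 were below the bar in every pool, so the higher pool 1 value of the second is not a measured difference in level. Ier2 (99109_at), which encodes a small nuclear protein of the early growth response, was at 541, 567 and 515, a mean of 541 ± 25.9 (SD, n = 3). Its 3 values were within 1.10-fold of each other.

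The pools were then asked if any member varied more than other probe sets of its brightness. The variance over the 3 pools was divided by the prior variance, which limma estimates from all tested probe sets at that level. Of the 15 member probe sets, 7 were bright enough to be tested, 1 each of Fosb, Jun, Junb, Jund, Egr1, Atf3 and Ier2. None of the 7 passed limma's test at an adjusted p of 0.05, against 1.34% of all 6211 tested probe sets, and 1 passed at an unadjusted p of 0.05, against 6.76%. That 1 was Fosb, with an SD of 0.63 on the log2 scale where 0.33 was the prior SD (limma unadjusted p = 0.0264, adjusted p = 0.578). Under the alternatives its adjusted p lay between 0.579 and 1. Its spread rests on pool 2, where it was below the bar, and without that pool its SD was 0.07. The SDs of the other 6 ran from 0.07 for Ier2 to 0.35 for Egr1, with limma adjusted p from 0.992 to 0.999. The median SD of the 7 was 0.28 and that of all tested probe sets 0.26. In data simulated with normal noise at the prior SD, the test recovered 11.2% of 2-fold and 91.6% of 4-fold changes in 1 pool. Differences near 2-fold were thus mostly not detectable with 3 arrays. These shares are averages over all tested levels, and recovery at the level of each member was not computed. The simulation gave all probe sets of a level the same noise, so the shares may be too high for real arrays.

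**Figure D2:**
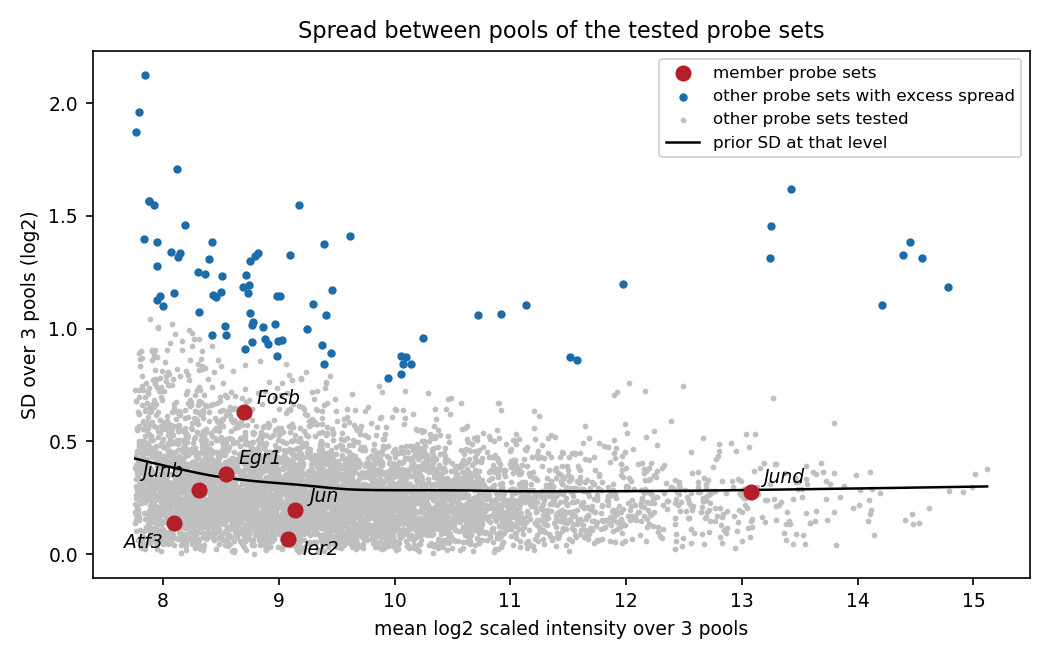
SD over the 3 pools (vertical axis, log2) against mean log2 scaled intensity (horizontal axis) for the 6211 tested probe sets, with the 7 tested member probe sets in red, other probe sets with excess spread in blue and the prior SD as a line. Fosb, at 0.63, lies above the line and below the blue points of its level, and Ier2, at 0.07, lies near the bottom.

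Among the members with signal in some pool, the deviations from a gene's own mean did not run alike. After scaling, genes above the bar in all pools had a median log2 deviation of -0.05, 0.13 and -0.09 in pools 1, 2 and 3. Deviations are given less that median. In pool 1 they were 0.46 for Fosb, 0.45 for Egr1, 0.38 for Junb, 0.20 for Jun, 0.05 for Ier2 and -0.24 for Jund. In pool 2 Egr1 was at -0.31, and in pool 3 Jund was at 0.35 and Fosb at 0.40. The pool 2 values of Fosb (-0.86) and Junb (-0.29) come from intensities below the bar, so they place these genes at or under background there and give no size. The other deviations of Fosb, Egr1 and Junb are from means that include such values. By the chosen probe sets, 5 of the 10 genes were highest in pool 1, against 28.6% of all genes. The count was 7 of 10 without scaling, where 36.4% of all genes were highest in pool 1. It was also 7 of 10 after that median of genes above the bar was taken off, where 34.8% were. After quantile normalization it was 5 of 10, against 35.2%. Only 3 of the 10 were above the bar in all pools, so these orders rest in large part on values near or below background.

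**Figure D3:**
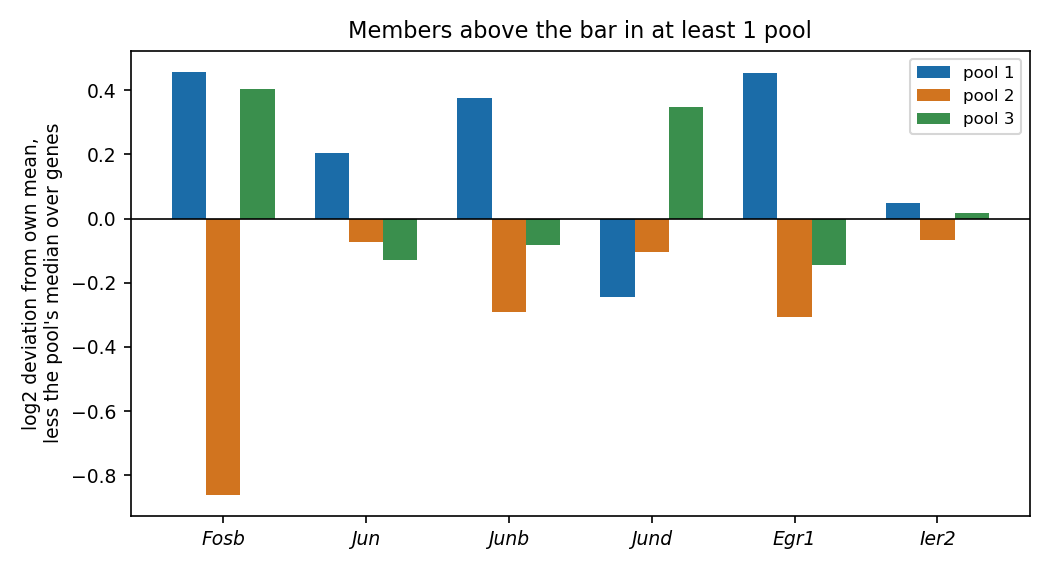
Log2 deviation from the gene's own mean over the pools, less the median deviation of genes above the bar in that pool (vertical axis), for the 6 members above the bar in at least 1 pool, with a bar for each of pools 1, 2 and 3. Jund alone is below 0 in pool 1. Fosb in pool 2, Junb in pools 2 and 3 and Egr1 in pool 3 were below the background bar, so the lengths drawn for them are not measured sizes.

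The genes closest in pattern to Fosb were those with the smallest root mean square distance between their 3 log2 deviations and its own, out of 4691 tested genes that are not members. They were Zkscan14 (949, 433 and 904 in pools 1, 2 and 3), Tbxas1 (422, 186 and 400), Sema6c (467, 207 and 461), H2-Bl (416, 215 and 391) and Gtf2h1 (671, 349 and 707), at distances of 0.01 to 0.09. In all, 74 of the 4691 lay within 0.25. In pool 2 Fosb, Tbxas1, Sema6c and H2-Bl were below the bar, so the likeness rests in part on background values. For the chosen Fos probe set, itself below background, the closest were Rxrb, Ddt, Scd2, Arrb1 and Chchd6 at about 0.01 each, and 2123 genes lay within 0.25. With 3 pools such likeness is a description of these arrays.

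Other genes of the immediate early response were above the bar in all pools for 16 of 37 measured, or 43.2%, close to the share of all genes. Dusp1 and Dusp6, phosphatases that switch off MAP kinases, were at 726 ± 92.9 and 506 ± 77.9 (mean ± SD, n = 3 pools, as below), Ier3, a survival gene of stressed cells, at 1393 ± 251, and Klf10, a zinc finger gene induced by TGF-beta, at 786 ± 84.3. Among the 21 that did not pass in all pools were the neuronal activity genes Nr4a1, Nr4a2, Homer1 and Bdnf, and Myc, Zfp36, Per1, Ptgs2 and Fosl1. None of the 20 tested had excess spread, by adjusted or unadjusted limma p below 0.05.

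Partners of Jun and Fos and corepressors of Egr were above the bar for 9 of 19, or 47.4%, against the 43.6% of all genes. With the 95th percentile bar it was 5 of 19, against 35.4%. Atf4, the translation-controlled factor of the integrated stress response, was at 4569.8, 6317 and 5817 in pools 1, 2 and 3, Atf2, a JNK target that pairs with Jun, at 1370 ± 303, Atf6 at 381 ± 46.8 and the small Maf gene Mafg at 475 ± 43.7. The Egr corepressor gene Nab1 was above the bar and Nab2 was not. None of the 10 tested had excess spread, by adjusted or unadjusted p.

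Of upstream kinases and factors 17 of 30 were above the bar, or 56.7%, against 43.6% of all genes. The JNK genes were among them: Mapk8 was at 1732 ± 320, Mapk9 at 645 ± 291 and Mapk10 at 474 ± 112, and Crebbp, a coactivator of CREB, at 913 ± 97.7. Mapk9 had 424, 975 and 537 in pools 1, 2 and 3 (limma unadjusted p = 0.0171, adjusted p = 0.463). None of the 18 tested passed the adjusted threshold, and at an unadjusted p below 0.05 there were 2, Mapk9 and Camk2b, the second named after its value was seen. Elk1, Elk4 and Creb1, which act on the Fos promoter, were not above the bar in all pools.

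Genes reported as targets of AP-1 or Egr factors were above the bar for 6 of 23, or 26.1%, against 43.6% of all genes. With the 75th percentile bar it was 10 of 23, against 57.3%, and without pool 3 it was 9 of 23, against 46.7%. These were Timp1, a protease inhibitor gene, at 839 ± 159, the cyclin gene Ccnd1 at 1946 ± 288, the heme oxygenase gene Hmox1 at 1391 ± 591, Mt2 at 765 ± 96.6, Pdgfa and Fn1. Hmox1 was at 820, 1353 and 2000 in pools 1, 2 and 3 (limma unadjusted p = 0.00622, adjusted p = 0.257), and was the 1 of 10 tested at an unadjusted p below 0.05, with 0 at an adjusted one. Mmp3, Mmp9, Mmp13, Il6 and Gfap were not above the bar. Heat shock and stress genes were above it for 16 of 20, with Hsp90aa1 at 11470 ± 2806, Hspa8 at 6571 ± 1039, Hspa5 at 3227 ± 192 and Hsph1 at 1162 ± 211. The 4 that did not pass in all pools were Hspa1a, Hspa1b, Hspb1 and Trib3. Hmox1, Atf4 and Ddit3 stand on this list and on one of the others. Of its 17 tested, 0 passed the adjusted threshold and 1, Hmox1, the unadjusted one.

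**Figure D4:**
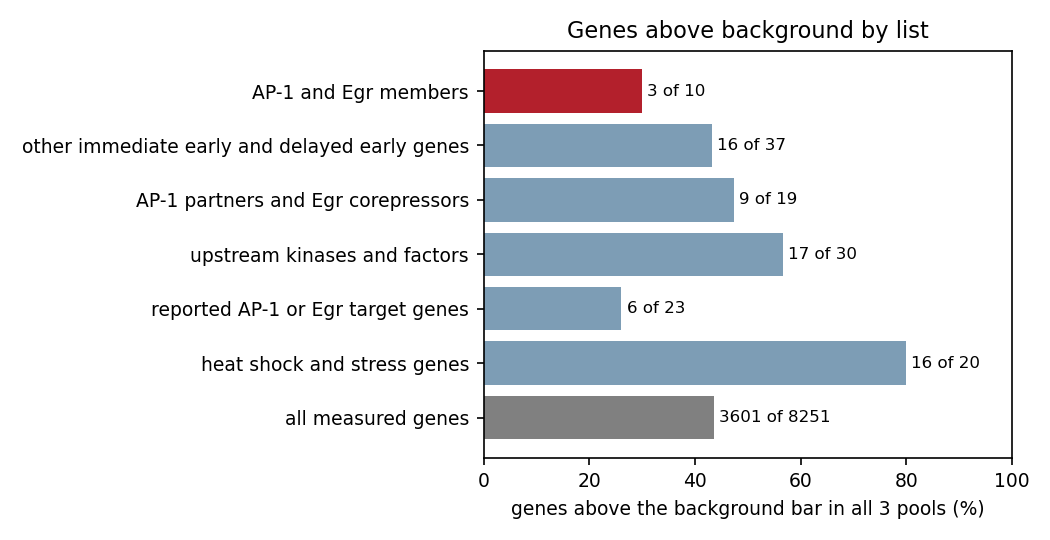
Share of measured genes above the background bar in all 3 pools (horizontal axis, percent) for the AP-1 and Egr members, the other lists of the pathway and all measured genes, with counts at the bar ends. The members were at 3 of 10, the target list at 6 of 23 and all genes at 43.6%. Heat shock and stress genes, at 16 of 20, were above that share. With the 75th percentile bar, not drawn here, the members were at 7 of 10, against 57.3% of all genes.

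As a check of the tissue label, 13 of 15 measured rod genes were above the bar, against 43.6% of all genes. Among them was Sag, which encodes rod arrestin, at 13718 ± 1455. Müller glia genes passed for 9 of 12, and markers of other cells for fewer: vascular 2 of 14, microglia and immune 5 of 17, pigment cell 1 of 8 and red blood cell 3 of 8. The last, at 37.5%, is close to the share of all genes. Some of these lists, or single genes in them, differed between pools. Of the 15 rod genes tested 2 had excess spread, against 1.34% of all tested probe sets. They were Gnat1 (219, 699 and 680 in the 3 pools, limma adjusted p = 0.0162), below the bar in pool 1, and Prph2 (1261, 981 and 3901, limma adjusted p = 0.000291). The rod genes above the bar had median log2 deviations of only -0.10, 0.06 and -0.03 in pools 1, 2 and 3. These are given less the medians of all genes above the bar. All 8 lens genes tested had excess spread. The lens list had 6 of 12 above the bar and a summed intensity of 26967, 127518 and 136902 in pools 1, 2 and 3, lowest in the pool where Egr1 and Junb were highest, with Cryaa at 7413, 38200 and 39990 and Cryba1 at 7878, 26611 and 32487. The red blood cell list summed to 4937, 9227 and 4831, highest in the pool where Fosb was lowest. Most of that sum came from the globin gene Hba-a1, at 2914, 6705 and 2821, and Hbb-b2 was at 650, 1016 and 440.4. The 3 genes of the list above the bar were all highest in pool 2. The rest lay below the bar in every pool and did not run alike. Slc4a1 (135, 46.3 and 123), Klf1 (161, 88.1 and 187), Epor (50.9, 33.8 and 41.3) and Hbb-bh1 (56.6, 41.1 and 53.9) were lowest in pool 2. None of the 3 red blood cell genes tested had excess spread, with 2 at an unadjusted limma p below 0.05. The 3′ to 5′ ratio of the Actb control transcript, a measure of RNA length and labelling, was 1.81, 1.27 and 1.30, and that of Gapdh 0.874, 0.788 and 0.812, both highest in pool 1. Their part in the values of Egr1, Junb and Fosb was not tested. Since the pools are whole tissue, fewer cells of a type and less RNA per cell cannot be told apart.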

How the data were processed

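Each probe set had 1 intensity per array, deposited by the authors as linear values. Their trimmed means (without the lowest and highest 2%) were 499.9 on each of the 3 arrays, so they had been scaled. What software and background correction made them is not given in the sources used here. Detection calls were not used, and the array type was read from the titles. The number of arrays limits the precision, and p-values cover only the spread among these 3 pools, whose biological and technical parts the labels do not separate.

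Names came from the platform annotation, brought up to date through gene IDs in RefSeq's GRCm38.p6 table (10817 of 10833 probe sets with 1 gene matched, 396 had several genes and 1193 were unnamed here, 66 controls were left out). For each gene the probe set with the highest mean was chosen, among those without a letter suffix where there were any. Arrays were brought to a common median (log2 shifts -0.06, 0.12 and -0.06), floored at the 20th percentile, 42.2, and put on the log2 scale. Excess spread was tested with limma 3.58.1 in R 4.3.3 (squeezeVar, robust, level as covariate) on the brighter 50% of probe sets, by an upper-tail F test with 2 residual and 279 prior degrees of freedom and Benjamini-Hochberg adjustment at 0.05. It was tested on 6211 simulated rows. The members and lists were chosen with earlier results of these data known. Named were all member probe sets, from each pathway list the first 4 genes above the bar and any with excess spread, the 5 genes closest in pattern to Fos and to the most variable member, and 2 genes of a cell type list that moved with a member. Sag, Gnat1 and Prph2 were named after their values were seen, and other genes named as above or not above the bar were picked to describe a list.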

Additional observations from a re-analysis of the deposited data

How the results depend on the processing

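All alternatives were planned. No member probe set that was tested had excess spread in any of the 10 alternatives in which the spread test was rerun. In the brightest 25% only that of Jund was tested. Over all probe sets the count of 83 became 6 without scaling between arrays, 6 after quantile normalization, 0 without the filter on dim probe sets (1612 at an unadjusted p below 0.05), 27 in the brightest 25% and 38 without limma's robust option, and 9 to 30 with 1 pool left out in turn. Member genes above the bar in all pools were 7 with the 75th percentile bar and 3 to 4 in the other 7 settings: Fosb joined without pool 2 and Egr1 without pool 3. Other immediate early genes above the bar numbered 14 to 21 of 37 over the alternatives. The 14 came with the mean of each gene's probe sets, where 40.7% of all genes passed. The 21 came with the 75th percentile bar, where 57.3% did. The range of Fosb between pools was 1.07-fold without pool 2. Of 74 further values recomputed, 9 moved (folds by over 1 SD between pools, counts by over 1.5 times). Among them were the partner list with the 95th and the target list with the 75th percentile bar. The rest were member folds, and every member whose fold was recomputed moved in some setting. Without pool 1 the range of Egr1 went from 1.56-fold to 1.04-fold, that of Junb from 1.41 to 1.01 and that of Jund from 1.47 to 1.17. Dim probe sets, 8 of the 15 of the members, could not be tested with the filter, and without it limma's prior carried little weight (0.851 degrees of freedom).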
